A study of Mus musculus with 8 samples.

Results

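The genes described here are the mouse chemokines of the CC and CXC families (Ccl and Cxcl genes) and their receptors (Ccr and Cxcr genes), read from liver RNA on microarrays. They were chosen by name: a gene belonged to the set if its symbol was Ccl, Cxcl, Ccr or Cxcr followed by a number and at most 1 letter, and if the scanner marked at least 1 of its probes as well above background on each array of some group. Of 54 such genes in the RefSeq table, 48 had a named probe and 31 passed: 21 ligands and 10 receptors, out of 14582 genes tested in all. A gene with several probes above background was read from the brightest of them.

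The study measured Btg2 knockout and wild-type livers of C57BL/6J mice on 8 single-colour arrays, with its title naming starvation as the setting. Btg2, also called TIS21 or PC3, encodes an antiproliferative protein that binds the CCR4-NOT deadenylase complex. That complex shares only a name with the chemokine receptor Ccr4. There were 4 groups of 2 arrays each. The adult wild-type and adult knockout groups were livers of males 10 weeks old, all fasted for 20 h. The fetal wild-type and fetal knockout groups were livers of embryonic day 13.5, taken from fetuses of both sexes and pooled over more than 3 fetuses of a womb. The series' design text calls the 2 arrays of a group technical duplicates, so each group was 1 RNA sample. P-values therefore measure array error alone: they compare 4 RNA samples and not genotypes, and the spread between animals was not measured. How the Btg2 allele was made, and how many adult mice were used, are not given in the sources used here. Adult and fetal samples also differed in fasting, sex and pooling, which cannot be told apart from stage.

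Chemokines are small secreted proteins that bind G protein-coupled receptors on leukocytes and direct their movement. Inflammatory chemokines are made when tissue is injured or infected, while homeostatic ones place cells in tissues and lymphoid organs at rest. In liver, resident macrophages (Kupffer cells), endothelial cells, stellate cells and hepatocytes all make chemokines, and the fetal liver is a site of blood formation in which Cxcl12 and its receptor Cxcr4 hold progenitor cells.

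The 75th percentile of processed signal, the value each array was scaled to, was 132 to 171 in adults and 277 to 333 in fetuses. Between 38.5% and 42.3% of probes passed the background flag on an adult array and 48.7% to 61.1% on a fetal one, of which the first fetal wild-type array alone stood above 49.8%. The lowest signal called well above background was 22.7 to 29.3 for adults and 13.9 to 17.7 for fetuses. After scaling, this limit lay at -2.91 to -2.44 on the log2 scale in adults and at -4.59 to -3.97 in fetuses, so a dim gene was harder to measure in the adult samples. All 12 hepatocyte markers of a fixed list were measured, and all 12 were well above background on both arrays of each adult group. Btg2, the deleted gene, had processed signals of 149 and 158 in wild-type adults against 6.26 and 8.02 in knockout adults. The fetal wild-type arrays read 2071 and 2080, and the fetal knockout arrays 4.54 and 5.14. Neither knockout was well above background. Btg2 was at least 7.63-fold lower in the knockout adults (adjusted p = 8.2e-07, limma), and in the knockout fetuses at least 99.7-fold lower (adjusted p = 1.4e-06, limma). The labels and the targeted gene thus matched on every array.

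Of the 31 genes, 13 were well above background on all 8 arrays, against 10588 of all 14582 genes tested. Both arrays were above background for 16 of the 31 in wild-type adults and 21 in knockout adults. In the corresponding fetal pools this held for 28 and 27 of them. The other 17 genes with a probe did not pass. Of these, 13 were not above background on any array: Ccl1, Ccl20, Ccl22, Ccl26, Ccl28, Ccr4, Ccr10, Cxcl2, Cxcl3, Cxcl15, Cxcl17, Cxcr1 and Cxcr5. A further 4 were above background on 1 or 2 arrays, and Ccr1 differed most between its arrays, at 71.5 on the second fetal wild-type array against 3.85 to 6.46 on the other 7. Just outside the limit too were Ccl8, with fetal signals of 11.9 to 24.0, Ccl11, with 7.77 to 16.6, and Ccr3, with 38.4 on the second adult wild-type array and 8.93 to 29.7 on the others. Just inside were Ccr6, with adult knockout signals of 25.6 and 32.2, Ccl12, with fetal signals of 28.1 to 32.9, Cxcl5, with 24.9 to 34.4, and Cxcl1, with adult signals of 25.2 to 42.3. Ccl21a to Ccl21d, Ccl27b and Cxcl11 had no probe that could be named.

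**Figure D1:**
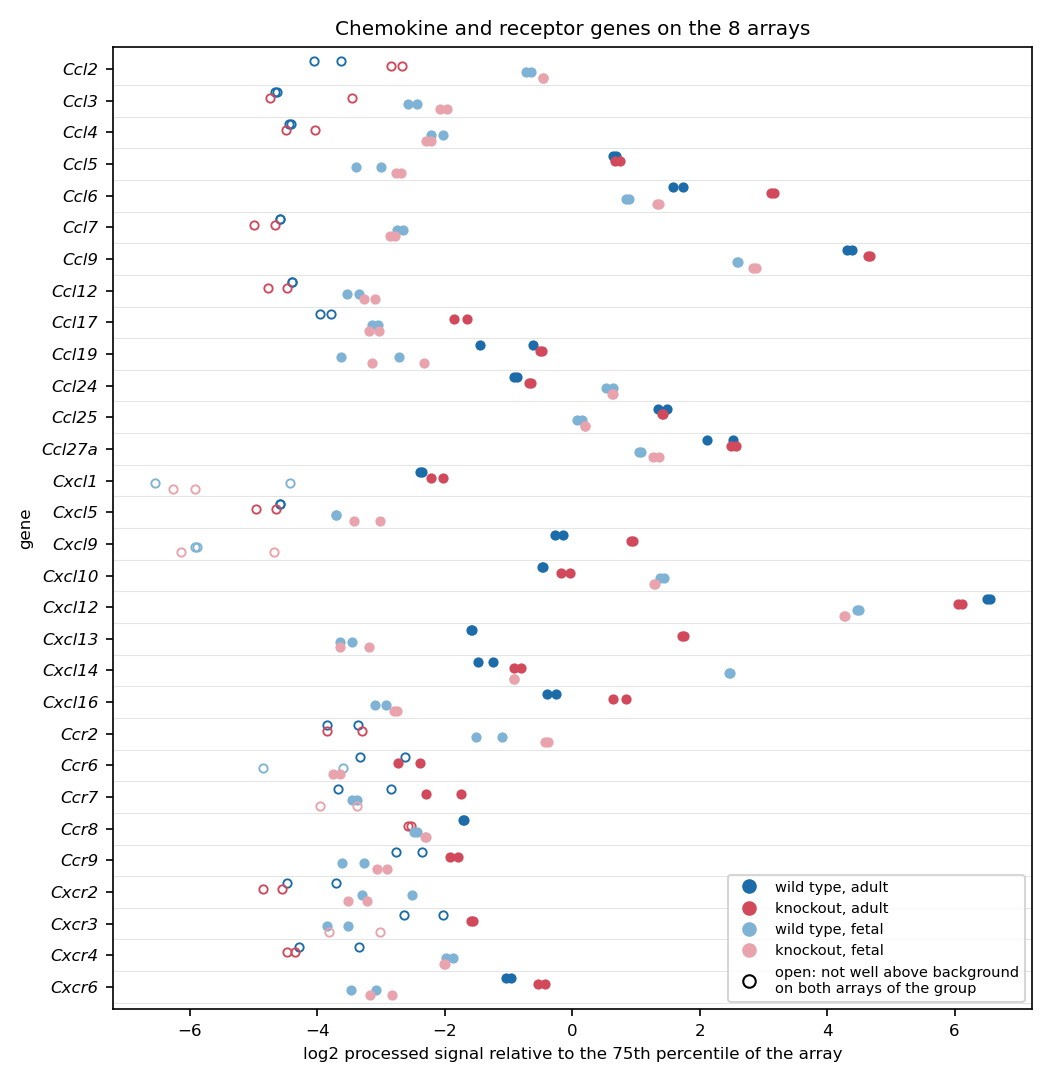
Log2 processed signal of 30 of the 31 chemokine and receptor genes on each of the 8 arrays, relative to the array's 75th percentile (x axis), by gene (y axis). Colours mark the 4 groups, and open circles mark genes that failed the background flag on an array of the group, as for most receptors in adult wild type; Cxcl13 in adult knockout and Cxcl14 in fetal wild type sit far to the right of their other groups. Levels of different genes come from different probes and cannot be ranked.

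Promoter sequences are shown for the genes on which the comparisons turn: Cxcl13 and Cxcl14, which carried the largest differences between knockout and wild type, and Cxcl9 and Cxcl10, ligands of the same receptor that differed in opposite directions between adult and fetal liver. Each line is the 250 bases upstream of the RefSeq gene start (GRCm38.p6), 5′ to 3′ on the gene's strand. Capitals mark matches to a TATA box (TATAAA, searched on the gene's strand only), to a form of the NF-kB site (GGG, any 3 bases, TTCC) and to a form of the interferon response element (GAAA, any 2 bases, GAAA), these last searched on both strands. The regions are chr5:95956689-95956938 on the plus strand for Cxcl13, and on the minus strand chr13:56296552-56296801 for Cxcl14, chr5:92328080-92328329 for Cxcl9 and chr5:92348890-92349139 for Cxcl10.
Cxcl13: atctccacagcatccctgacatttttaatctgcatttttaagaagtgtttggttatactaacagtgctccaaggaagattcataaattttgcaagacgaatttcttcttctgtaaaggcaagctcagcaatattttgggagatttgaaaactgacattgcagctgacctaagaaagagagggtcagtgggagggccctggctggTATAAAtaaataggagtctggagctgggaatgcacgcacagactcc
Cxcl14: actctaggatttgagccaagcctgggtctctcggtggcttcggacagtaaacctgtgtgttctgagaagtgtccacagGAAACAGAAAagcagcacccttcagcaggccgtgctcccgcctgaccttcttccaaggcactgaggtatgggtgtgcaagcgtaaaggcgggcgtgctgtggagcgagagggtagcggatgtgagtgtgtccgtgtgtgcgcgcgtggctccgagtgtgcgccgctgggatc
Cxcl9: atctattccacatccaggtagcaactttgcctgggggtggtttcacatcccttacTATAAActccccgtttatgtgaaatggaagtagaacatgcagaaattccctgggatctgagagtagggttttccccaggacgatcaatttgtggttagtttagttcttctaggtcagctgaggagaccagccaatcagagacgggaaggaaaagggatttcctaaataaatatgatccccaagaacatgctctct
Cxcl10: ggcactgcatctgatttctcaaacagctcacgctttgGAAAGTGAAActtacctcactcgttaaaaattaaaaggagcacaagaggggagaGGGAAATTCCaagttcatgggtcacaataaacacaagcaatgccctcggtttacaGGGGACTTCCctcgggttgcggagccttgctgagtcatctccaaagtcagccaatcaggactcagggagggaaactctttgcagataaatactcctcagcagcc

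Counted from the gene start, the TATA box of Cxcl13 begins at -46 and that of Cxcl9 at -195. The interferon form lies at -172 in Cxcl14 and at -213 in Cxcl10, and the NF-kB form at -159 and -104 in Cxcl10. Windows from 250 bases before to 50 after the start were given for 22 of the 31 genes, 26 windows in all, since a gene can have several starts. The NF-kB form was in 4 of these 26 windows (of Ccl9, Ccr6, Cxcl1 and Cxcl10), against 5.56% of 32851 windows of the same length. The interferon form was in 3 of 26 (Ccl19, Cxcl10 and Cxcl14), against 3.44%. The TATA box was in 6 of 26 (Ccl9, Ccl12, Ccl25, Cxcl9, Cxcl13 and Cxcr4), against 8.32%. These are matches of letters and not measured sites. The 6 genes with a TATA box did not move as a group: only Cxcl13 was called between knockout and wild type.

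The first comparison asks which of these genes differed between the fasted adult knockout and wild-type livers. In the adult knockout, 7 of the 31 genes were higher and none was lower, where a call takes 2-fold or more together with an adjusted p below 0.05 (limma, Benjamini-Hochberg over all genes). Among them were the ligands Cxcl13, Cxcl16, Ccl6, Ccl17 and Ccl2 and the receptor Ccr7, of which Ccl2 was below background in both groups. Over all genes tested, 4.96% were called higher and 2.53% lower. At an unadjusted p under 0.05 and without a fold limit, 15 of the 31 were higher and 2 lower. The share of all genes at that unadjusted limit was not counted in any comparison. Such counts, here and below, therefore cannot be read as particular to the set or to a list. The median difference of the set was 0.36 on the log2 scale, against -0.10 for all genes. Scaling each array to its median instead moved the median of all genes to 0.09.

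Cxcl13, a homeostatic chemokine that draws B cells through the receptor Cxcr5, moved most. Its processed signals were 44.8 and 43.8 in adult wild type and 575 and 561 in adult knockout. The raw fetal signals were lower, with 30.2 and 26.0 in wild type and 22.3 and 30.3 in knockout. The adult knockout arrays thus stood far above every other array. After scaling, adult wild type, at a mean of -1.58 on the log2 scale, lay above fetal wild type at -3.55 and fetal knockout at -3.41. The rise was 3.32 ± 0.17 (log2 difference ± SE, n = 2 arrays a group, adjusted p = 4.4e-06, limma). Cxcr5, its receptor, was not above background on any array, and of 5 B cell markers measured none was called in the adult comparison by limma, while 2 were higher and 1 lower at an unadjusted p under 0.05.

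Cxcl16 is made as a membrane-anchored protein that binds Cxcr6 on T and natural killer T cells and also takes up oxidised lipid. Its signals were 111 and 101 in adult wild type and 266 and 306 in adult knockout. They were 44.0 and 37.9 in fetal wild type and 41.4 and 39.8 in fetal knockout. Adult arrays were all above fetal arrays, and adult knockout was above adult wild type without overlap. The rise was 1.07 ± 0.13 (adjusted p = 0.00027, limma), just past 2-fold, and without the second adult knockout array it was 0.97 and no longer called, as with normexp background correction, at 0.79. Cxcr6, the receptor, had signals of 65.0 and 67.9 in adult wild type and 118 and 126 in adult knockout, a difference of 0.52 ± 0.18 (adjusted p = 0.047, limma) that stayed under 2-fold.

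Ccl6 and Ccl9 are rodent CC chemokines of myeloid cells that act on Ccr1, and they neighbour each other on chromosome 11 between Ccl5 and Ccl3. Ccl6 had signals of 444 and 399 in wild-type adults and 1534 and 1472 in knockout adults. The fetal arrays read 598 and 599.9 for wild type and 699 and 718 for knockout. Adult knockout stood apart at the top. Fetal arrays were brighter as a whole, and after scaling adult wild type, at a mean of 1.66 on the log2 scale, lay above fetal wild type at 0.87 and fetal knockout at 1.35. The rise of Ccl6 was 1.48 ± 0.05 in the adult knockout (adjusted p = 1e-06, limma). In the fetal knockout the difference was 0.49 ± 0.05 (adjusted p = 0.0015, limma), under 2-fold. Ccl9 differed by 0.31 ± 0.03 in the adult and 0.26 ± 0.03 in the fetal comparison, so the neighbours did not move to the same extent in the adult.

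Other calls rested on dim signals. Ccl17, a ligand of Ccr4 made by dendritic cells, had signals of 8.56 and 9.60 in adult wild type and 54.3 and 47.1 in adult knockout. It was at least 1.67-fold higher in the knockout (adjusted p = 5.3e-05, limma). Ccr7, the receptor that guides dendritic and T cells to lymph nodes, had 18.5 and 10.3 against 50.8 and 34.6, at least 1.38-fold higher (adjusted p = 0.019, limma). For Ccr7 the measured difference of 1.24 ± 0.35 was 0.83 with the second adult wild-type array left out and 0.98 with the first adult knockout array left out, and neither was called. Ccl2, the main monocyte attractant, met the limits of a call (adjusted p = 0.0013, limma) on signals of 8.07 and 10.8 in wild type and 26.8 and 23.5 in knockout. None of these was well above background, so the size of the Ccl2 difference was not measured and no fold is given. Its call was lost without the first adult wild-type array, at 0.86, and without the first adult knockout array, at 0.98. With dim values raised to a common floor, the highest detection limit of the 8 arrays, Ccl17 at 0.69, Ccr7 at 0.42 and Ccl2 at 0 were no longer called.

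Among the genes not called, Cxcl12 and Ccl9 had the smallest error, at 0.03. Cxcl12, a homeostatic ligand of Cxcr4 and Ackr3, had signals of 12539 and 12037 in adult wild type and 11380 and 11724 in adult knockout. After scaling it was 0.45 lower in the knockout (difference -0.45 ± 0.03, adjusted p = 1.6e-05, limma), which did not reach 2-fold. Its second probe gave -0.26. Cxcl9 and Cxcl10, the interferon-induced ligands of Cxcr3, differed by 1.15 ± 0.42 (adjusted p = 0.051, limma) and 0.36 ± 0.06 (adjusted p = 0.0018, limma). The SE was shared by all 4 groups. For Cxcl9 it took in fetal arrays below background, with scaled log2 values of -4.68 and -6.14 in fetal knockout. The 2 adult groups did not overlap for either gene: Cxcl9 had 119.9 and 109 against 323 and 327, and its second probe gave 1.14. Ccr8, a receptor of skin-homing and regulatory T cells, was well above background in adult wild type at 40.8 and 40.7 but not in knockout at 29.6 and 28.4. Its bound of 1.77-fold lower in the knockout (adjusted p = 0.001, limma) takes the unflagged signal of the first knockout array as a floor. The difference stayed under the 2-fold call. Ccr9, a gut-homing receptor, had 19.7 and 26.0 against 45.3 and 49.0. It was not well above background in adult wild type and was at least 1.5-fold higher in the knockout (adjusted p = 0.026, limma), under the 2-fold call.

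**Figure D2:**
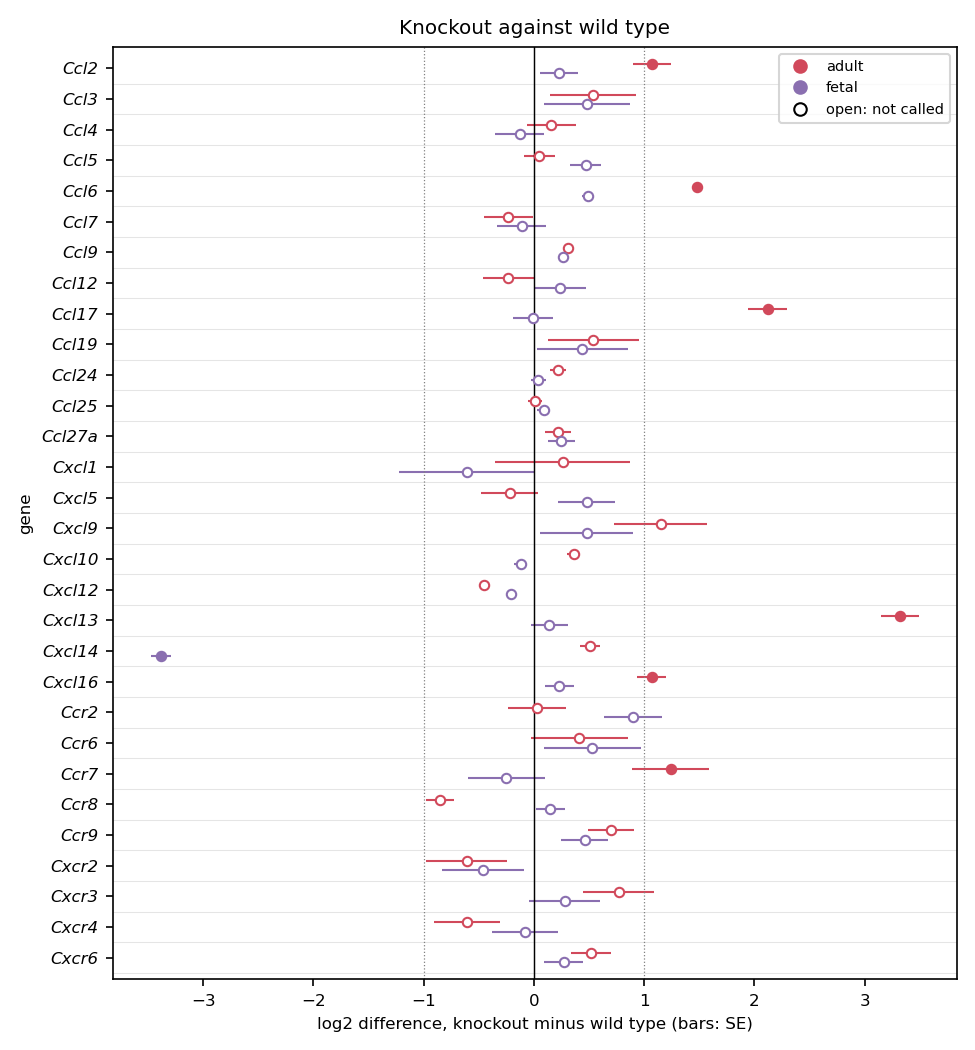
Log2 difference between knockout and wild type (x axis) for 30 of the 31 genes (y axis) in adult and in fetal liver, with bars for limma's SE from 2 arrays a group. Filled points were called, and dotted lines mark 2-fold. The 6 adult calls shown lie to the right at 1.07 to 3.32, and the 1 fetal call, Cxcl14, lies at -3.38.

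Macrophage markers also rose in the adult knockout. Of 15 macrophage and Kupffer cell markers measured, 14 were called higher (limma) and Mrc1, at 0.86, did not reach 2-fold. The median of the list was 2.44. Their summed level, in units of the array's 75th percentile, was 77.8 and 74.3 in wild-type adults, 399 and 408 in knockout adults and 108 to 132 over the fetal arrays. Both adult knockout arrays thus stood apart from the other 6, as they did for Cxcl13. Lyz2, the macrophage lysozyme, rose by 4.43 ± 0.07, Marco, a scavenger receptor, by 3.64 ± 0.04, and Adgre1, the F4/80 antigen, by 3.23 ± 0.04. C1qa, C1qb and C1qc, the chains of complement C1q, rose by 3.09, 2.95 and 1.93. The rises of the others were 3.00 for Folr2, 2.42 for Cd5l, 2.27 for Vsig4, 2.16 for Csf1r, 1.85 for Mpeg1 and 1.84 for Clec4f. Timd4 and Cd163 were not well above background in adult wild type and rose at least 11.5-fold and at least 1.71-fold. In the fetal knockout none of the 15 was called by limma, while 8 were higher and 1 lower at an unadjusted p under 0.05.

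Markers of other cell types were counted in the same comparison. Monocyte markers rose for 5 of 11 (among them Cd300e 3.80, Ms4a6c 2.10, Ifi27l2a 1.62 and F13a1, which was dim in both adult groups) and dendritic cell markers for 5 of 10, 4 of them genes of class II antigen presentation (H2-Aa 2.35, Cd74 1.51, H2-Ab1 1.33 and H2-Eb1 1.05) and the other Batf3 (1.72). Neutrophil markers had 2 rises (S100a8 and S100a9) and 1 fall (Lcn2) of 12, and T and NK cell markers 1 rise (Gzma 1.34) of 9. Stellate cell and fibroblast markers had 3 rises of 11, in the contractile actin Acta2 (1.71) and the collagens Col3a1 (1.66) and Col1a1 (1.12). Intestinal epithelium markers had 3 rises and 2 falls of 6: Krt20, Reg3b and Vil1 were dim in adult wild type and were at least 2.77-fold, at least 2.01-fold and at least 1.07-fold higher, while Fabp2 at -1.39 and Lgals4 at -1.27 fell. The thymus marker Dntt fell as well, at -2.13, the only call of 3. Ccl25, a gene of the set, counts among both the 6 intestinal and the 3 thymus markers and was not called. Platelet markers had 1 rise (Clec1b 1.51) and 1 fall (Gp6, at least 2.32-fold lower) of 10. There was 1 rise each among 7 progenitor markers (Cd48 1.93), 11 liver endothelial markers (Tek 1.23), 12 erythroid markers (Hbb-bh1, dim in both adult groups) and 6 mesothelial markers (Upk3b, dim in wild type), and 1 fall among 7 epidermis markers (Trp63 at -1.18). None of 12 hepatocyte, 4 mast cell and basophil or 4 lymphatic endothelial markers was called (limma). The part of a changed cell make-up in the chemokine differences was not tested. In bulk liver RNA, more cells of a type and more RNA per cell cannot be told apart.

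The pathway downstream of the receptors was read from a fixed list. Of 27 genes of chemokine receptor signalling measured, 11 rose in the adult knockout and none fell, by limma, with 24 higher and 2 lower at an unadjusted p under 0.05. Over all genes, 4.96% were called higher and 2.53% lower. The list's median was 0.98. Rac2, the leukocyte GTPase of cell movement, rose by 2.30 ± 0.03, and Rgs2, which shortens G protein signals, by 1.90 ± 0.04. Was, the actin regulator of blood cells, rose by 1.62 ± 0.07, and Vav1, which activates Rac GTPases, by 1.55 ± 0.05. The 4 G protein subunits and 3 receptor kinases measured stayed under 2-fold with adjusted p under 0.05. Of the subunits, Gng2 was at 0.98, Gnb1 at 0.30, Gnai3 at 0.27 and Gnai2 at -0.54, and of the kinases, Grk5 was at 0.56, Grk6 at 0.18 and Grk2 at 0.11. The Gnai2 difference was not the same at the 2 stages (interaction -1.07 ± 0.07, adjusted p = 2.5e-05, limma). None of the 27 was called in the fetal knockout by limma, while 12 were higher and 2 lower at an unadjusted p under 0.05. Signalling itself was not measured, and the part of a changed cell make-up in these differences was not tested.

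A further list held 25 measured genes of pathways that induce chemokines (NF-kB, toll-like receptor, interferon and lymphotoxin), inhibitors among them. Of these, 7 rose in the adult knockout and none fell, by limma, with 11 higher and 6 lower at an unadjusted p under 0.05. Cd14 rose by 2.90 ± 0.11, Irf5 by 1.57 ± 0.08, Tlr2 by 1.52 ± 0.11 and Il1r1 by 1.49 ± 0.04. Irf8 rose by 1.08 ± 0.05, Tnfaip3 by 1.00 ± 0.11 and Il1b at least 3.03-fold. The list's median was 0.15. The NF-kB subunit Rela was at -0.26, Nfkb1 at 0.39 and Nfkbia, an inhibitor induced by NF-kB, at 0.15, none of them called. In the fetal knockout only Il6 was called, at 1.37 ± 0.23 (adjusted p = 0.0071, limma), while 5 were higher and 3 lower at an unadjusted p under 0.05. Of 12 proteases and sulphated glycan genes that act on chemokines, none was called in either comparison by limma, while at an unadjusted p under 0.05 1 was higher and 4 lower in the adult and 3 were higher and 2 lower in the fetus. Among 10 chemokine genes named outside the rule, the atypical receptors Ackr1 and Ackr4, which bind chemokines without signalling through G proteins, were at least 1.98-fold and at least 1.07-fold higher in the adult knockout, and Ackr3 was called but was dim in both adult groups.

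In the fetal pools, 1 of the 31 genes was called, Cxcl14, and it was lower in the knockout. Over all genes tested, 0.521% were called higher and 1.44% lower in the fetal knockout. The median of the set was 0.23, against 0.02 for all genes, and at an unadjusted p under 0.05 4 of the 31 were higher and 2 lower. Cxcl14 is a homeostatic chemokine of epithelia and skin. Its signals were 1848 and 1785 in fetal wild type and 147 and 147 in fetal knockout. In the adults they were 47.9 and 55.9 in wild type and 98.4 and 90.2 in knockout. Fetal wild type alone was high, and the fall in the fetal knockout was by 3.38 ± 0.09 on the log2 scale (adjusted p = 8.7e-06, limma). In the adults the difference had the other sign, 0.51 ± 0.09 (adjusted p = 0.0026, limma), under 2-fold.

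Epidermis markers fell in the same comparison. Of 7 epidermis and skin markers measured, with the chemokine Ccl27a left out of the list, 4 fell in the fetal knockout: the basal keratins Krt14 by 2.30 ± 0.23 and Krt5 by 2.28 ± 0.32, the suprabasal keratin Krt10 by 1.40 ± 0.07, and Krt1, which was at least 4.52-fold lower. Lor at -0.82, Sfn at -1.14 and Trp63 at 0.18 were not called. Their summed level was 20.7 and 20.7 on the fetal wild-type arrays, 7.69 and 7.51 on the fetal knockout arrays and 4.16 to 6.41 on the adult arrays. All 7 were well above background on both arrays of fetal wild type. The part of tissue other than liver in the Cxcl14 difference was not tested. Ccl27a itself, the skin chemokine that binds Ccr10, differed by 0.25 ± 0.12 in the fetal comparison (adjusted p = 0.18, limma).

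**Figure D3:**
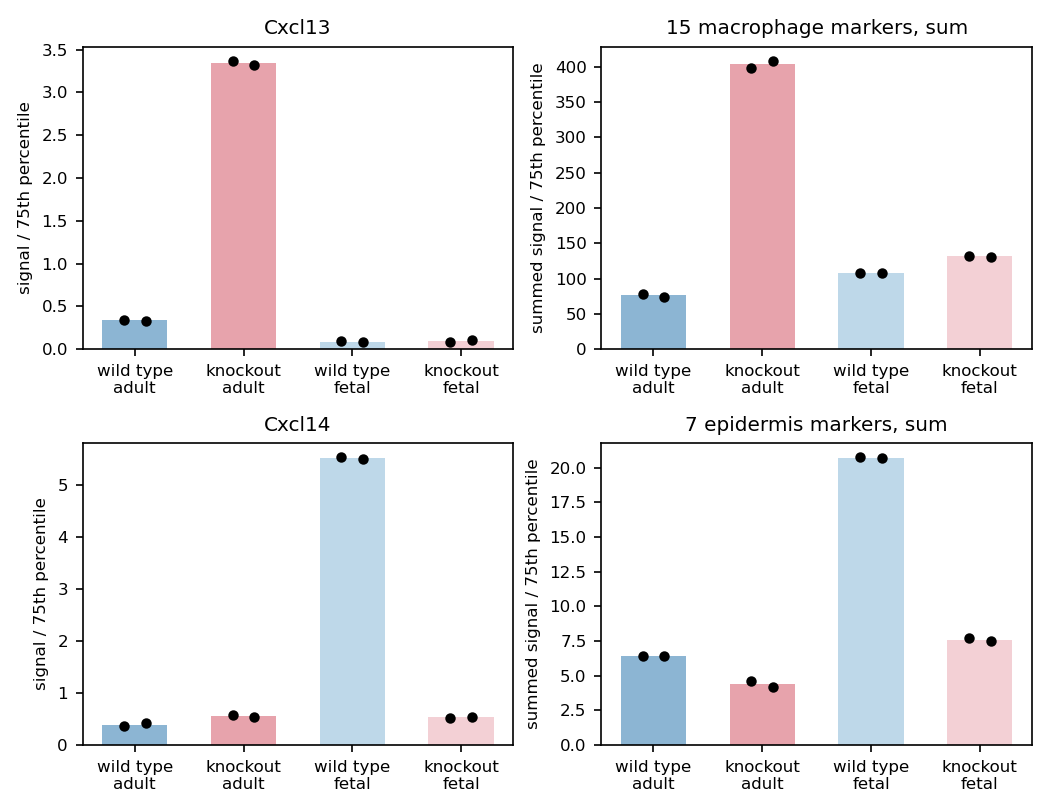
Level of Cxcl13 (upper left) and Cxcl14 (lower left) beside the summed levels of 15 macrophage markers (upper right) and 7 epidermis markers (lower right), on a linear axis in units of the array's 75th percentile. Points are the 2 arrays of each group and bars their mean; the macrophage sum reaches 399 and 408 only in adult knockout, and the epidermis sum 20.7 only in fetal wild type.

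The other fetal differences were small. Ccr2, the monocyte receptor of Ccl2, had signals of 156 and 114 in fetal wild type and 206 and 213 in fetal knockout, without overlap, a difference of 0.90 ± 0.26 (adjusted p = 0.045, limma) that did not reach 2-fold. Ccl6 at 0.49, Ccl9 at 0.26 and Cxcl12 at -0.21 ± 0.03 also had adjusted p under 0.05 and stayed under 2-fold. Cxcl12, whose signals were 7370 and 7330 in fetal wild type and 5410 and 5308 in fetal knockout, was thus lower in the knockout at both stages, by less than 2-fold. Its second probe gave -0.17 in the fetal comparison. Of the other genes that rose in the adult, Cxcl13 at 0.14, Cxcl16 at 0.23, Ccl2 at 0.23, Ccl17 at -0.01 and Ccr7 at -0.25 had SEs of 0.13 to 0.35 in the fetal comparison and were not called.

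Whether the knockout differences themselves differed between adult and fetus was tested by an interaction term. Of the 31 genes, 5 were called with a positive adult minus fetal value and none with a negative one, where 6.06% and 3.70% of all genes were called. At an unadjusted p under 0.05, 9 were positive and 3 negative (limma). A positive value need not be a larger adult difference: for Cxcl14 the difference was -3.38 in the fetus and 0.51 in the adult. Cxcl14 had the largest fitted interaction at 3.89 ± 0.13 (adjusted p = 2e-06), and the others called included Cxcl13 at 3.19 ± 0.24 (adjusted p = 4e-05) and Ccl17 at 2.14 ± 0.26 (adjusted p = 0.00038). Ccr7, at 1.49 ± 0.49 (adjusted p = 0.039), had the largest error. Without the second adult wild-type, the first adult knockout, either fetal wild-type or the second fetal knockout array it was 1.07 to 1.53, with adjusted p of 0.08 to 0.12, and not called, and its call was lost under 11 of 20 alternatives in all. Ccl17 and Ccr7 were not well above background in adult wild type, so the sizes of their interactions include values below the limit. Ccl6 at 0.99 ± 0.07 and Cxcl16 at 0.84 ± 0.18 had adjusted p of 4.3e-05 and 0.0061 and stayed under 2-fold.

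The second pair of comparisons set adult against fetal liver. In wild type 13 of the 31 genes were higher in the adult and 10 lower, and in knockout 18 were higher and 11 lower. Some of the lower genes passed the background filter only through the fetal groups, where they were high. Among the 14 genes well above background on both arrays of both wild-type groups, 9 were higher and 3 lower. In knockout there were 17 such genes, of which 14 were higher and 2 lower. Over all genes, 27.3% were called higher and 27.9% lower in wild type, and 25.8% and 27.8% in knockout. The split depended on the scaling: with each array scaled to its median, 9 were higher and 14 lower in wild type and 13 higher and 11 lower in knockout, and with quantile normalization 11 higher and 14 lower in wild type and 16 higher and 11 lower in knockout. Median scaling moved the median of all genes from -0.01 to -0.64 in wild type and from -0.04 to -0.52 in knockout. Because the detection limit lay higher in the adults, calls with a dim adult group are given as bounds, or with no fold where the bound came to under 1 or the dim adult group was the higher one. The same adult and fetal samples enter the knockout comparisons, so the stage values for wild type and knockout are set side by side without a count of their overlap.

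Cxcl9 was measured in the adult groups alone. Its signals were 119.9 and 109 in adult wild type and 323 and 327 in adult knockout, and 3.93 to 10.8 on the fetal arrays, none well above background. It was at least 18.7-fold higher in adult wild type (adjusted p = 5.2e-06, limma) and at least 30.1-fold higher in adult knockout (adjusted p = 2.7e-06, limma). The gene's second probe read 44.7 and 36.7 in adult wild type and 105 and 124 in adult knockout, against 7.78 to 18.7 on the fetal arrays, of which 1 was well above background. Cxcl10, which lies beside it on chromosome 5 with only Art3 between, went the other way. Its signals were 97.2 and 94.8 in wild-type adults and 166 and 149.9 in knockout adults. The fetal wild-type arrays read 867 and 882 and the fetal knockout arrays 683 and 675. Cxcl10 was lower in the adult by 1.88 on the log2 scale in wild type (difference -1.88 ± 0.06) and by 1.40 in knockout (-1.40 ± 0.06). The fetal arrays were all above the adult arrays for Cxcl10 and all below them for Cxcl9. Cxcr3, their shared receptor, was higher in the adult, by 1.35 ± 0.32 in wild type and 1.84 ± 0.32 in knockout, with 1 adult wild-type and 1 fetal knockout array below the limit. The wild-type call was lost under 5 of 21 alternatives, at 0.87 with quantile normalization and with the deposited value table, 0.72 with median scaling, 0.91 with scaling on probes detected on all arrays and 0.20 with the common floor. The knockout call was lost with normexp, at 0.90, and with the common floor, at 0.87.

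Ccl5, an attractant of T cells, NK cells and monocytes, had signals of 215 and 205 in adult wild type, 273 and 284 in adult knockout, and 31.8 to 43.2 on the fetal arrays. It was higher in the adult by 3.86 ± 0.14 in wild type and 3.44 ± 0.14 in knockout. Cxcl16 was higher in the adult by 2.68 ± 0.13 and 3.52 ± 0.13, and its receptor Cxcr6 by 2.28 ± 0.18 and 2.52 ± 0.18, so ligand and receptor were on the same side in both genotypes. Cxcr6 signals were 29.3 to 39.3 on the fetal arrays, below all adult arrays. Cxcl13 was higher in the adult by 1.97 ± 0.17 in wild type and by 5.15 ± 0.17 in knockout. With the common floor its wild-type difference was 0.85 and not called.

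The homeostatic ligands Cxcl12, Ccl19, Ccl25 and Ccl27a were called higher in the adult in both genotypes, for Ccl25 and Ccl27a not under every scaling. Cxcl12 was higher by 2.05 ± 0.03 in wild type and 1.81 ± 0.03 in knockout, and its second probe gave 1.14 and 1.06. Ccl19, the Ccr7 ligand of lymphoid stroma, had adult signals of 87.3 and 48.5 in wild type and 121 and 122 in knockout, and fetal signals of 26.1 to 55.5, with the adult wild-type pair reaching into the fetal range. The Ccl19 difference was 2.14 ± 0.41 and 2.24 ± 0.41 after scaling. Ccl25, the Ccr9 ligand of thymus and gut, was higher by 1.30 ± 0.06 and 1.22 ± 0.06. Its raw signals, 319 to 370 in the fetus and 337 to 459 in the adult, overlapped, so that call rests on the scaling. Ccl25 was called in neither genotype with median scaling (0.67 in wild type and 0.74 in knockout), with normexp (0.95 and 0.98) or with scaling on probes detected on all arrays (0.86 and 0.96). Ccl27a was higher by 1.25 ± 0.12 and 1.21 ± 0.12, but another probe of the gene gave 0.05 in wild type and -0.86 in knockout, so its probes disagreed. Ccl27a too was called in neither genotype with those 3 alternatives (0.62 to 1.00) or with the mean of its probes (0.89 and 0.54). Ccl9 was higher by 1.76 ± 0.03 and 1.81 ± 0.03.

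Cxcl1, a neutrophil attractant acting on Cxcr2, had adult signals of 26.2 and 25.2 in wild type and 42.3 and 36.5 in knockout. The fetal arrays read 15.4 and 3.46 in wild type and 3.59 and 4.57 in knockout, and only the first fetal wild-type array was well above background. The difference was 3.12 ± 0.61 in wild type (adjusted p = 0.0019, limma), and Cxcl1 was at least 3.64-fold higher in adult knockout. With dim values raised to the common floor the difference was 0.07 in wild type and 0.32 in knockout, and neither was called.

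Ccl2 and its receptor Ccr2 were higher in the fetus. Ccl2 had fetal signals of 212 and 196 in wild type and 203 and 203 in knockout, all far above the adult arrays, which were not above background. It was at least 3.49-fold lower in adult wild type and at least 4.44-fold lower in adult knockout. Ccr2, with adult signals of 9.32 to 17.3, was at least 2.27-fold and at least 4.98-fold lower in the adult. Cxcr4, the Cxcl12 receptor of progenitors, lymphocytes and neutrophils, had fetal signals of 91.2 and 82.1 in wild type and 70.0 and 68.7 in knockout against 6.86 to 13.1 in adults, at least 1.48-fold and at least 1.65-fold lower in the adult. Cxcl12 and Cxcr4 thus lay on opposite sides. With normexp, Ccl2 (-0.81 in wild type and -0.96 in knockout), Cxcr4 (-0.06 and -0.27) and, in wild type, Ccr2 (-0.29) were no longer called, nor was Cxcr4 with the common floor (-0.51 and -0.44).

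Ccl3 and Ccl4, inflammatory ligands made by macrophages that neighbour each other on chromosome 11, were not above background on any adult array. Ccl3 read 5.28 to 15.5 in the adults against 55.6 to 70.5 in the fetuses, and Ccl4 read 6.13 to 10.5 against 56.9 to 79.6. Ccl4 was at least 1.29-fold lower in adult wild type and at least 1.38-fold lower in adult knockout, and Ccl3 at least 1.62-fold lower in adult knockout. With normexp background correction, however, the wild-type differences of Ccl3 and Ccl4 were 0.16 and 0.08, so their direction is not settled. In knockout they were -0.36 and -0.09 with normexp and -0.41 and -0.18 with the common floor, and not called. Normexp was run with an offset of 50, above every processed adult signal of both genes, and its part in these values was not tested. Ccl24, the eosinophil attractant eotaxin-2, was measured on all arrays, with 70.4 to 109 in adults and 426 to 520 in fetuses, and was lower in the adult by 1.47 in wild type (difference -1.47 ± 0.07) and by 1.29 in knockout (-1.29 ± 0.07).

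The stage difference of Cxcl14 changed with genotype. In wild type it was lower in the adult (difference -3.83 ± 0.09, adjusted p = 6.5e-09, limma), and in knockout the difference was 0.06 ± 0.09 (adjusted p = 0.54, limma). The receptors Ccr7 and Ccr9 and the ligands Ccl6 and Ccl17 were called higher in the adult in knockout only, at 1.64, 1.13, 1.79 and 1.36. In wild type they stood at 0.15, 0.89, 0.80 and -0.78, where Ccr7, Ccr9 and Ccl17 were not well above background in the adult. The Ccr9 call in knockout was lost under 6 of 21 alternatives, at 0.58 to 0.95, among them quantile normalization, the deposited value table and median scaling. The Ccl17 call was lost with normexp (0.83), median scaling (0.89) and the common floor (0.69), and the Ccr7 call with normexp (0.87) and the common floor (0.42). The test of that difference is the interaction above, which called Ccr7 and Ccl17 but not Ccl6 or Ccr9. Ccr6, the Ccl20 receptor of lymphocytes, was called higher in the adult in both genotypes on signals of 11.2 to 32.2. In wild type no adult array was well above background and no fold is given, and in knockout the difference was 1.13 ± 0.44. The call was lost under 8 of 21 alternatives in wild type and 13 of 21 in knockout. In wild type it was 0.89 without the second adult and 0.61 without the second fetal wild-type array. In knockout, leaving out any of its 4 arrays took the adjusted p to between 0.079 and 0.17. Cxcr2, the neutrophil receptor of Cxcl1 and Cxcl5, was called lower in the adult in both genotypes, but no adult array was well above background and no fold is given. With normexp the sign turned, to 0.44 in wild type and 0.14 in knockout. The fitted wild-type difference was -0.79 without the first adult and -0.79 without the first fetal wild-type array, and the knockout one -1.18 without the first adult or the first fetal knockout array, none of them called. Ccl7, Ccl12 and Cxcl5 were above background only in the fetal pools, at 24.9 to 52.8, and no fold is given for them.

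**Figure D4:**
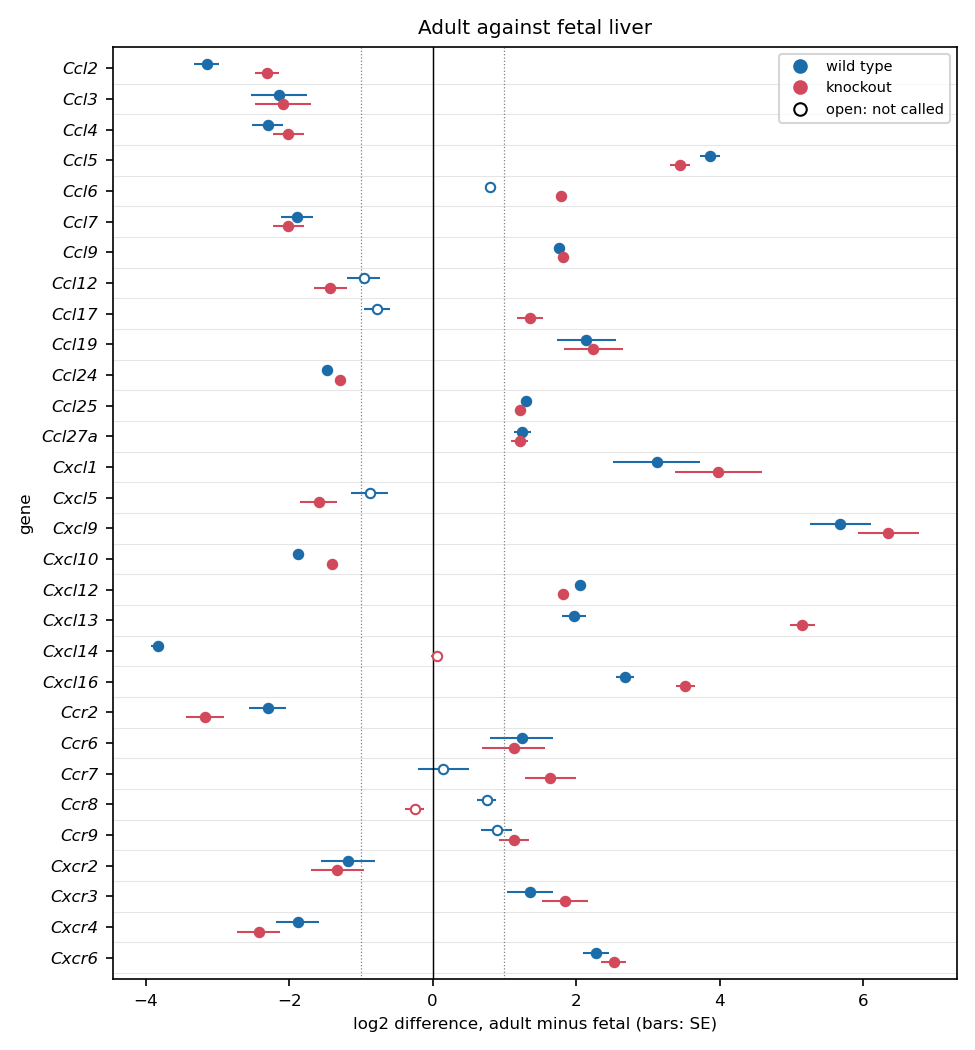
Log2 difference between adult and fetal liver (x axis) for 30 of the 31 genes (y axis) in wild type and in knockout, with bars for limma's SE from 2 arrays a group. Filled points were called and dotted lines mark 2-fold; values of genes dim in a group, such as Cxcl9, are fitted from signals below the limit and carry no rank. Cxcl14 is at -3.83 in wild type and 0.06 in knockout.

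Markers of blood cells also differed between the stages. Of 12 neutrophil markers 9 were lower in adult wild type (median -4.80), of 10 platelet markers 9 were lower (median -4.27) and all 12 erythroid markers were lower (median -5.72), while all 12 hepatocyte markers were higher (median 4.78). Over all genes, 27.3% were called higher and 27.9% lower. On no adult array were 3 of the neutrophil, 4 of the platelet and 4 of the erythroid markers well above background. Those passed the filter only through the fetal groups, and the medians include their values below the limit. Pf4 and Ppbp, platelet chemokines named outside the rule, were lower in the adult by 5.95 (difference -5.95 ± 0.07) and 5.91 (-5.91 ± 0.10) on the log2 scale in wild type. Both count among the 10 platelet markers, and without them 7 of 8 were lower in adult wild type (median -3.6). Cx3cr1, the fractalkine receptor of monocytes and macrophages, was at least 13.9-fold lower, and Ackr1 and Ackr3 were at least 57.9-fold and at least 17.0-fold lower. Rarres2, the liver-made chemoattractant chemerin, was higher in the adult by 6.12 ± 0.03, and Ackr2, a scavenger of inflammatory CC chemokines, by 3.78 ± 0.17. The part of these cells in the stage differences of the 31 genes was not tested.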

How the data were processed

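Liver RNA of 4 samples was read on 8 arrays, 2 a sample. Per the labels' protocols, 200 ng of Trizol-extracted RNA was labelled with Cy3. Per the file headers, 1 slide read in 1 scan held the 8 arrays, and Agilent Feature Extraction 10.7.3.1 produced the spot values. The deposited files hold the processed signal, median signal and background of each spot as linear intensity values. The deposited value table is also a linear intensity, and matched a quantile normalization of the processed signal to within 0.16 on the log2 scale at most. Its scale is linear, its median was 18.1 in every column, and how it was made is not stated in the sources used here. Groups lay in different slide columns, so column and group cannot be told apart. The first array of every group lay in row 1 and the second in row 2.

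Control spots were left out and 92 to 188 spots an array with an outlier flag were treated as missing. The saturation flag was set on no spot of any array. The main values were log2 of the processed signal minus the array's 75th percentile, averaged over the spots of a probe. Accessions were matched without version to RefSeq (GRCm38.p6), which named 26762 of 55681 probes. That table was used for names and gene order only. A probe was kept where each array of some group flagged it as well above background, and the brightest kept probe stood for a gene. All 4 groups entered 1 fit in limma 3.58.1 (R 4.3.3; lmFit, eBayes with an intensity trend), with p-values adjusted by Benjamini-Hochberg over 14582 genes and a 2-fold limit. The procedure was tested on simulated data. The number of arrays limits the precision: the SD of the difference between duplicate arrays over the 31 genes was 0.32 to 0.48.

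For a gene dim on every array of a group, the fold is a bound: the brighter group's mean log2 value was set against the mean of a floor. On each dim array the floor is the gene's own signal or the lowest signal flagged well above background, whichever is larger. That lowest signal is taken over all probes of the array, and the limit of a single probe can be higher. On the first adult knockout array it was 22.7, yet Ccr8 at 29.6 and Ccl2 at 26.8 were not flagged. A fold given as at least some value is therefore relative to this floor and not a strict limit. Genes named in the text are Btg2, the set's genes, those at the edge of detection, all macrophage markers and called genes of the other lists; a few uncalled ones, such as Rela and Gng2, were named after their values were seen. A few genes count in the totals but are not reported here. The genes and lists were chosen with earlier results of these data known. Background correction (normexp, on the median signal, offset 50), scaling, the filter on dim probes, the choice of probe, the fit and each array were varied. The normexp offset is added to every signal, so differences between dim signals shrink. A common floor was added after the data were seen.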

Additional observations from a re-analysis of the deposited data

Results flagged for a closer look

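Genes whose knockout difference was not the same in adult and fetal liver, by the interaction term of limma, were singled out. They were Cxcl14, with an adult minus fetal difference of 3.89 on the log2 scale, Cxcl13 with 3.19, Ccl17 with 2.14 and Ccr7 with 1.49. For Cxcl13, Ccl17 and Ccr7 the adult knockout was the high group, and for Cxcl14 the fetal wild type was. Ccl17 and Ccr7 were not well above background in adult wild type, so their interaction sizes include values below the detection limit.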

How the results depend on the processing

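The calls of Cxcl13 and Ccl6 in the adult knockout and of Cxcl14 in the fetal knockout held under all 22 alternatives run for each, with Cxcl13 at 2.28 to 3.51, Ccl6 at 1.41 to 1.67 and Cxcl14 at -3.51 to -2.83. Counts of called genes changed as follows, and the cause was not tested except where fewer genes or a lower limit made the change. With normexp, 2 genes were higher in the adult knockout and 3 had a positive interaction. Cxcl16 at 0.79, Ccl17 at 0.44, Ccr7 at 0.15 and Ccl2 at 0.04 were among the adult calls lost. Against fetal liver, 3 were lower in the adult in wild type, and 11 were higher and 3 lower in knockout. Normexp turned the stage difference of Ccl3 to 0.16, Ccl4 to 0.08 and Cxcr2 to 0.44 in wild type, and Cxcr2 to 0.14 in knockout. Scaling on probes detected on all arrays gave 8 interactions, and 9 genes higher and 14 lower in the adult in wild type. Without the filter on dim probes, 1 gene (Ccr3, at -2.27) was lower in the adult knockout, 2 were lower in the fetal knockout and 1 had a negative interaction. That setting gave 25 and 28 genes higher in the adult in wild type and knockout. With probes above background on all arrays alone, 3 were higher in the adult knockout and 2 had a positive interaction. Against fetal liver, that filter left 3 lower in the adult in wild type, and 10 higher and 2 lower in knockout. Without the fold limit, 13 were higher and 2 lower in the adult knockout, 3 and 2 in the fetal knockout, and 9 and 2 in the interaction. With the common floor, chosen after seeing the data, 5 were lower in the adult in wild type and 4 in knockout. Leaving out each array in turn gave 5 to 8 higher and 0 to 1 lower in the adult knockout, 0 to 1 higher and 1 to 2 lower in the fetal knockout, and 4 to 6 and 0 to 3 in the interaction. For adult against fetal liver it gave 12 to 14 higher and 9 to 11 lower in wild type, and 17 to 18 and 10 to 11 in knockout. The 3 lower interactions came without the first adult wild-type array. The shared replicate number is the slide row. As a replicate block it gave 8 higher in the adult knockout and 17 higher in the adult against fetal knockout comparison, and moved no count by over 1.5 times. Over all genes, calls in the adult knockout ran from 233 to 1049 higher and 118 to 667 lower, and in the fetal knockout from 13 to 133 and 14 to 302, against 723, 369, 76 and 210. The interaction cannot be had from the groups compared alone, and genes removed by a filter gave no value. Limits: 1 RNA sample stood for each group, and dim signals limit the adult arrays most.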
